A study of Rattus norvegicus with 20 samples.

Results

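The proteasome genes described here are the rows of the array whose annotation gives 1 symbol that begins with Psma, Psmb, Psmc, Psmd, Psme, Psmf or Psmg followed by a digit, without the interferon-inducible genes Psmb8, Psmb9, Psmb10, Psme1 and Psme2. The rule gave 41 of the 14557 named genes, and 1 of them (Psma8) had more than 1 row, of which the brighter was used. Of the 41 genes, 36 (87.8%) lay at or above the level that 58.4% of all named genes reached, a mean of 2.64 on the log2 scale over the 20 arrays. The remaining 5 genes were too dim to be tested. They were Psma8 (mean 2.0), which encodes the testis form of an alpha subunit, Psmb11 (2.54), which encodes the thymus form of a beta subunit, the assembly chaperone gene Psmg3 (2.22), and the gene copies Psma6-ps1 (1.36) and Psmb3l2 (1.01).

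Whole blood was collected from male rats of the Zucker strain, with 5 rats in each of 4 groups and 1 array per rat. Lean control rats received Purina 5008 chow. Obese Zucker diabetic fatty rats, called ZDF, received a stock diet for 6 weeks, and a further group of obese rats was given rosiglitazone, an insulin-sensitizing drug that activates PPAR gamma, and another was given resveratrol, a plant polyphenol. The ages of the rats and the doses of both compounds are not given in the sources used here. Diet and genotype differ together between lean and ZDF rats, so their parts cannot be told apart. The 6 weeks of stock diet were recorded here for the ZDF group only. Diet may thus also differ between the treated groups and either of the others. ZDF rats are a genetic model of diabetes that lacks a working leptin receptor. A value is the log2 intensity of 1 row of the array, which combines several short probes to the same gene.

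The proteasome is the protease that degrades most proteins tagged with ubiquitin. Its core is a barrel of stacked rings. The outer rings hold the alpha subunits, which form the gate, and the inner rings hold the beta subunits, some of which carry the catalytic sites. A regulatory particle caps the barrel. The base of this particle holds the ATPases that unfold substrates and feed them in, and the lid holds the subunit that removes ubiquitin. Dedicated chaperones assemble the core and the base, and other caps such as PA200 can bind the core in place of the regulatory particle. In blood, white cells, platelets and reticulocytes contain proteasomes, and reticulocytes use them while they mature into red cells.

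Promoters of the RefSeq GRCr8 table (250 bases before to 50 bases after the start of the gene) were matched to 31 of the 36 kept members. Promoters are shown for the 3 genes that passed the F test over the 4 groups described below. That count changed when rats were left out. Capitals mark the sequence CCAAT, which the factor NF-Y binds, or TGACNNNGC, a form of the antioxidant response element, each searched on both strands, so that the reverse forms ATTGG and GCNNNGTCA also appear. The promoter of Psma1 (chr1:177887808-177888107, minus strand) holds CCAAT beginning 123 bases before the start. The promoter of Psmd13 (chr1:205393998-205394297, plus strand) holds the reverse form ATTGG beginning 96 bases before the start. The promoter of Psme4 (chr14:108706393-108706692, plus strand) holds a reverse TGACNNNGC beginning 55 bases before the start and no CCAAT.
Psma1: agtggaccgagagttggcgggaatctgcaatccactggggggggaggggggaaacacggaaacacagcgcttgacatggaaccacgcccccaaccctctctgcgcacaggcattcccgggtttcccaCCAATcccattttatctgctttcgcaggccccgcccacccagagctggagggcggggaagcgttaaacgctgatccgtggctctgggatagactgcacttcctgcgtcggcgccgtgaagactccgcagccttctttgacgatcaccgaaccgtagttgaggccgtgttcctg
Psmd13: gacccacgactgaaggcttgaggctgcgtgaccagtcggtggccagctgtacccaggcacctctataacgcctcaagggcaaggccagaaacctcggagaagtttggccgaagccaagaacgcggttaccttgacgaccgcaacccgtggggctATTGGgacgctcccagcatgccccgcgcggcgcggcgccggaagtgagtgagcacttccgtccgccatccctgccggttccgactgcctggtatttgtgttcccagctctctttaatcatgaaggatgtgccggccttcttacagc
Psme4: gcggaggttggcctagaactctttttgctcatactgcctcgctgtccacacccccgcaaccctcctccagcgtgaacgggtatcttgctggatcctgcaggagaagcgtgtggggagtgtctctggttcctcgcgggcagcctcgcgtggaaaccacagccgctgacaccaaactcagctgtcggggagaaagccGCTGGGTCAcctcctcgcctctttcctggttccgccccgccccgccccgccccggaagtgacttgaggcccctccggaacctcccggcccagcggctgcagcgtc
CCAAT was found in 14 of the 31 member promoters (45.16%) and in 37.49% of the 33469 promoters of the table. TGACNNNGC was found in 5 of the 31 (16.13%) and in 12.06% of all promoters, and the motifs overlapped in 1 member promoter, that of Psmb2. A match describes the letters of the window only.

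Blood of this kind holds several cell types, and a lower value can come from fewer cells of a type or from less RNA per cell, which cannot be told apart here. Monocyte markers were bright (10 of 10 above the level), as were 9 of 10 neutrophil markers (Ltf was below it) and 10 of 10 T cell markers. All 6 named B cell markers, all 5 named platelet markers and all 5 named red cell markers were bright as well. These lists held 10, 8 and 10 markers, and the rest were not named by 1 symbol on the array. The mean of the neutrophil markers was 4.80 in lean rats (range 4.54 to 5.30), 5.38 in ZDF rats (5.24 to 5.55), 5.77 in rosiglitazone rats (5.02 to 6.84) and 5.61 in resveratrol rats (5.21 to 6.07). The mean of the monocyte markers was 5.48 in lean rats (5.33 to 5.64), 6.05 in ZDF rats (5.87 to 6.22), 6.08 in rosiglitazone rats (5.45 to 6.52) and 5.63 in resveratrol rats (4.83 to 5.91). The mean of the T cell markers was 5.90 in lean rats (5.51 to 6.19), 5.49 in ZDF rats (5.35 to 5.72), 5.01 in rosiglitazone rats (4.51 to 5.29) and 5.28 in resveratrol rats (4.77 to 5.68). The mean of the B cell markers was 5.22 in lean rats (4.98 to 5.45) and 4.59 in ZDF rats (4.29 to 4.80), and 2 of the 6 passed the test as lower in ZDF rats. It was 4.16 (3.97 to 4.39) and 4.43 (3.95 to 4.76) in the rosiglitazone and resveratrol rats. Platelet markers had means of 8.96, 8.38, 8.30 and 8.62 in lean, ZDF, rosiglitazone and resveratrol rats, and 3 of the 5 passed the test as lower in ZDF rats. NK cell markers had means of 4.91, 4.49, 4.22 and 4.27 in the same order, with 7 of 8 above the level (Gzmb was below it), and all rosiglitazone rats (3.71 to 4.44) lay below all lean rats (4.67 to 5.00). Red cell and reticulocyte markers had means of 8.38 (7.89 to 8.85), 8.46 (8.03 to 8.86), 8.61 (8.48 to 8.802) and 8.82 (8.66 to 9.16). Between ZDF and lean rats, 4 monocyte and 2 neutrophil markers passed the test as higher, 2 T cell markers as lower, and 0 NK cell or red cell markers passed. Lean replicate 1 also had skeletal muscle transcripts, with a marker mean of 6.56 against 2.56 to 3.41 on the other 19 arrays, and rosiglitazone replicate 5 had the smallest spread over genes. The part of these shifts in the proteasome values was not tested. The 36 proteasome genes had a median SD within groups of 0.295, near that of all genes (0.303).

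**Figure D1:**
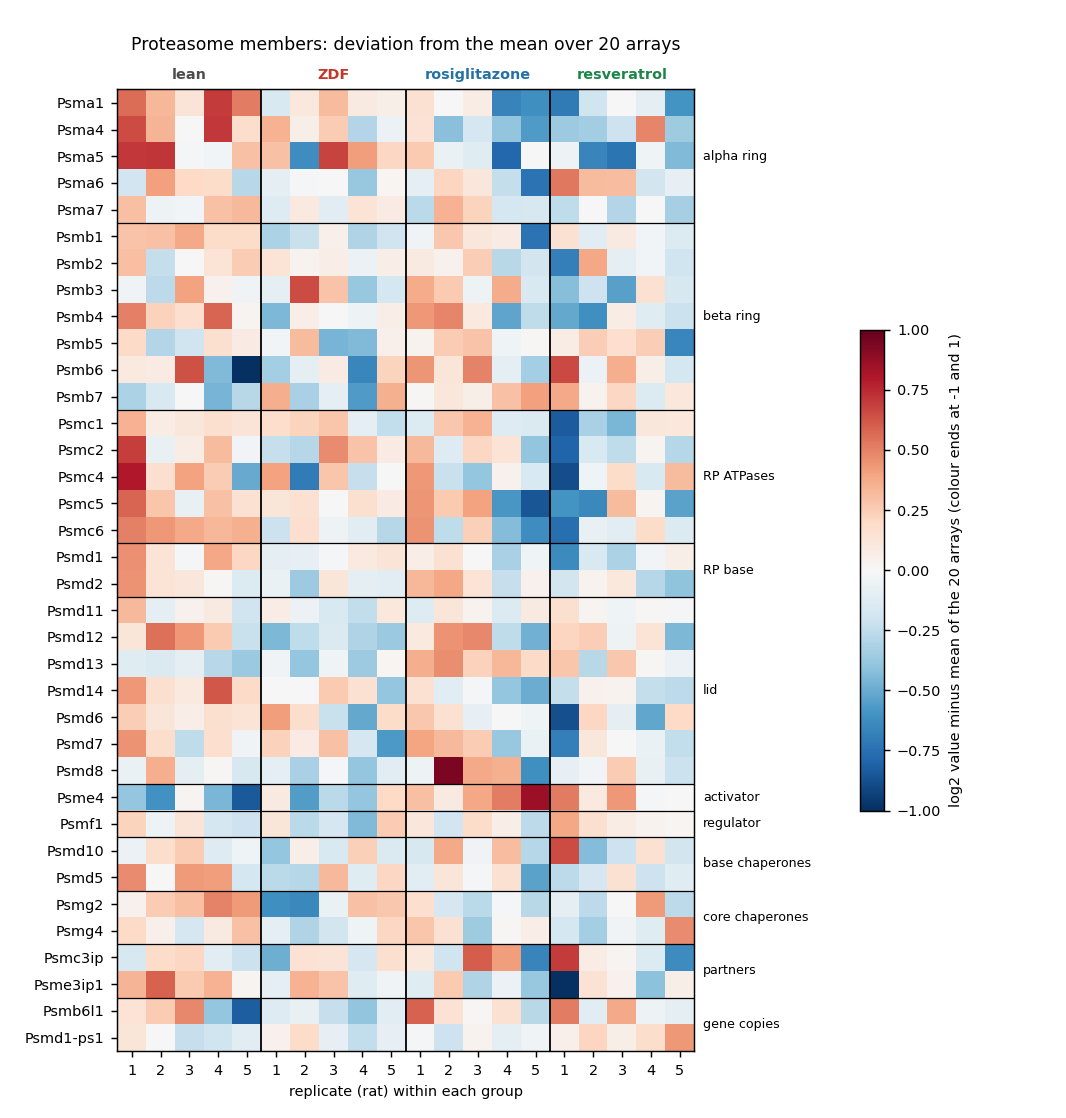
Each row is a proteasome gene, grouped by subcomplex, and each column is a rat. Colour gives the log2 value minus the mean of the gene over the 20 arrays. The lean group had the highest mean of 4 of the 5 alpha ring genes and of all 5 ATPase genes, Psme4 and Psmd13 ran the other way, and resveratrol replicate 1 and rosiglitazone replicate 5 held the lowest values of 10 and 9 genes.

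Over the 4 groups the proteasome genes did not move as a block. The lean group had the highest mean of the 4 groups for 21 of the 36 genes (58.3%), against 45.4% of the 8499 genes tested, and the ZDF group had the highest mean of 0 members, against 13.6% of all genes. The resveratrol group had the lowest mean of 17 members (47.2%, against 25.6% of all genes) and the ZDF group that of 12 (33.3%, against 18.7%). Lean values were thus above all 3 obese groups for all 5 ATPase genes, for 4 of the 5 alpha ring genes and for 4 of the 7 lid genes. Only Psmb7, Psmd13, Psme4 and the gene copy Psmd1-ps1 had their lowest mean in lean rats. These counts describe group means and, like the shares of all genes, rest on the scaling of the arrays. Centring each array on the median of the 8499 genes left 14 of the 36 differences between ZDF and lean above 0 and 22 below it. The median difference was then -0.015 over the members and 0.04 over all genes. The counts of group means were made on the deposited scaling only.

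A moderated F test over the 4 groups (limma, Benjamini-Hochberg adjustment over 8499 genes, threshold 0.05) called 3 of the 36 genes (8.33%), and 11.4% of all genes were called. They were Psma1 of the alpha ring (adjusted p = 0.0268), Psmd13 of the lid (adjusted p = 0.0449) and the activator gene Psme4 (adjusted p = 0.0141). At an unadjusted p under 0.05 there were 11 of 36 (30.6%), against 31.5% of all genes. The count was 0 when lean replicate 1 and rosiglitazone replicate 5 were both left out, and it was 1 (Psme4) without lean replicate 1, 2, 4 or 5 taken singly.

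In the alpha ring, 2 of the 5 genes were called lower than in lean rats with rosiglitazone (Psma1 and Psma4) and 2 with resveratrol (Psma1 and Psma5), and 14.48% and 10.4% of all genes were called lower in these comparisons. The mean of its 5 genes was 6.11 ± 0.15 in lean rats (SD, n = 5), 5.88 ± 0.11 in ZDF rats, 5.67 ± 0.25 in rosiglitazone rats and 5.66 ± 0.14 in resveratrol rats. Psma1 encodes an alpha subunit of the gate. Its values were 6.12, 5.90, 5.69, 6.26 and 6.07 in lean rats, 5.41, 5.67, 5.88, 5.65 and 5.62 in ZDF rats, 5.71, 5.57, 5.64, 4.89 and 4.95 in rosiglitazone rats, and 4.86, 5.36, 5.57, 5.48 and 4.96 in resveratrol rats. All 5 resveratrol rats lay below all 5 lean rats, and 1 rosiglitazone rat lay within the lean range. Psma1 was 0.77 lower on the log2 scale in resveratrol than in lean rats (difference -0.77, SE 0.183, adjusted p = 0.0148), a call kept in all 21 alternatives, and 0.66 lower in rosiglitazone rats (difference -0.66, SE 0.183, adjusted p = 0.0166). The rosiglitazone call was lost without rosiglitazone replicate 5 (adjusted p = 0.0574) and under 1 other setting of the processing (adjusted p = 0.115). In ZDF rats the difference from lean was -0.36 (SE 0.143, adjusted p = 0.140), which did not pass.

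Psma4 encodes another alpha subunit. Its values were 6.16, 5.85, 5.51, 6.21 and 5.68 in lean rats, 5.85, 5.57, 5.76, 5.21 and 5.45 in ZDF rats, 5.65, 5.09, 5.34, 5.12 and 4.94 in rosiglitazone rats, and 5.15, 5.16, 5.30, 6.00 and 5.15 in resveratrol rats. Replicate 4 stood above the other resveratrol rats, and 4 of the 5 rosiglitazone rats lay below every lean rat. The difference from lean was -0.65 with rosiglitazone (SE 0.189, adjusted p = 0.0199) and -0.53 with resveratrol (SE 0.189, adjusted p = 0.0607), and the first was lost without lean replicate 1 (adjusted p = 0.0580), lean replicate 4 (0.0603) or rosiglitazone replicate 5 (0.0616). Psma5 encodes a further subunit of the same ring. It was 4.42, 4.43, 3.69, 3.68 and 4.01 in lean rats, 4.01, 3.10, 4.39, 4.13 and 3.93 in ZDF rats, 3.98, 3.65, 3.59, 2.93 and 3.71 in rosiglitazone rats, and 3.66, 3.05, 2.98, 3.67 and 3.28 in resveratrol rats. The resveratrol rats lay just below the lean rats with no overlap, at a highest value of 3.67 against a lowest of 3.68. The difference was -0.72 (SE 0.230, adjusted p = 0.0408), and leaving out any lean rat but replicate 3, or any resveratrol rat but replicate 4, ended the call (adjusted p up to 0.109). Psma6 and Psma7 were between -0.34 and 0.11 from lean in the 3 obese groups and did not pass.

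**Figure D2:**
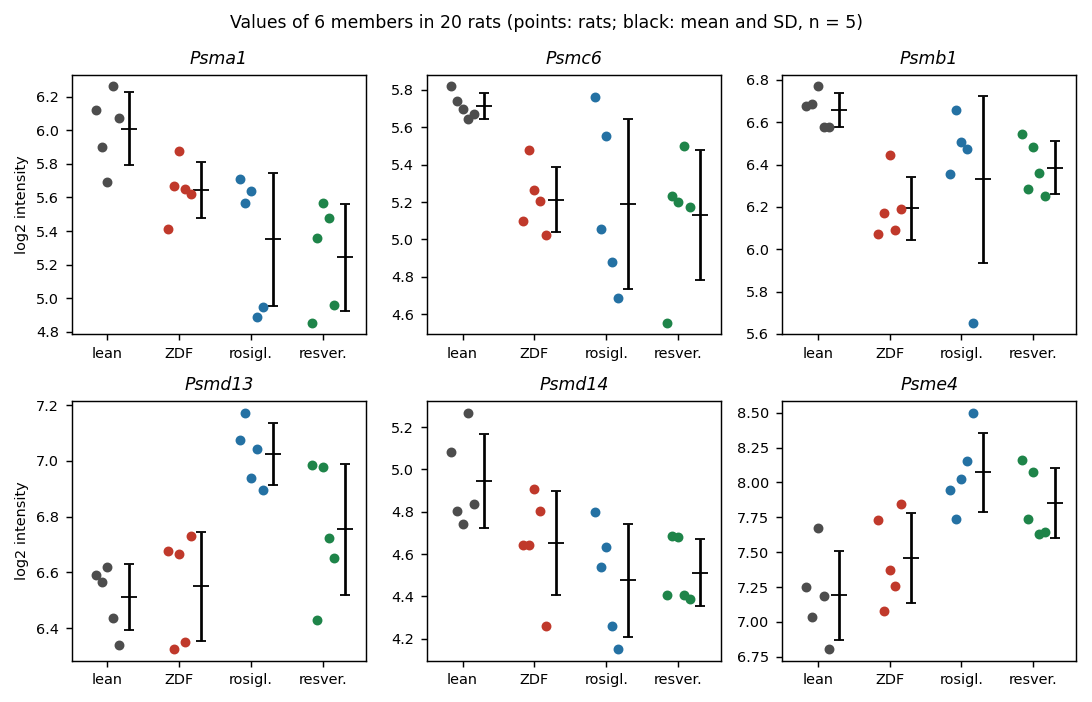
Points are the log2 intensities of single rats for 6 genes, and the black marks give the mean and SD of each group (n = 5). Psma1, Psmc6 and Psmd14 were highest in lean rats, Psmb1 separated ZDF from lean rats, and Psmd13 and Psme4 separated rosiglitazone from lean rats.

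The beta ring, which carries the catalytic sites, showed no common direction. The mean of its 7 genes was 5.404 ± 0.13 in lean rats (SD, n = 5), 5.29 ± 0.17 in ZDF rats, 5.44 ± 0.17 in rosiglitazone rats and 5.31 ± 0.10 in resveratrol rats. Psmb4, which encodes a beta subunit without a catalytic site, was 5.38, 5.10, 5.04, 5.46 and 4.90 in lean rats, 4.42, 4.94, 4.87, 4.82 and 4.94 in ZDF rats, 5.30, 5.36, 4.97, 4.35 and 4.62 in rosiglitazone rats, and 4.36, 4.26, 4.94, 4.75 and 4.66 in resveratrol rats. Of the resveratrol rats, 1 reached the lean range. Its difference from lean was -0.58 with resveratrol (SE 0.19, adjusted p = 0.0449). It did not pass without lean replicate 1, 2 or 4 or resveratrol replicate 1, 2 or 5 (adjusted p up to 0.112). Psmb1, also a subunit without a catalytic site, was 6.68, 6.69, 6.77, 6.58 and 6.58 in lean rats, 6.07, 6.17, 6.44, 6.09 and 6.19 in ZDF rats, 6.35, 6.66, 6.51, 6.47 and 5.65 in rosiglitazone rats, and 6.54, 6.28, 6.48, 6.36 and 6.25 in resveratrol rats. All ZDF and all resveratrol rats lay below all lean rats. The difference between ZDF and lean was -0.46 (SE 0.125, adjusted p = 0.0560), which missed the threshold. Psmb7, which encodes the catalytic subunit with trypsin-like activity, was higher with rosiglitazone without overlap, at 6.07 to 6.46 against 5.60 to 6.06 in lean rats, a difference of 0.42 (SE 0.171, adjusted p = 0.0850). The catalytic subunit genes Psmb5 and Psmb6, and the structural genes Psmb2 and Psmb3, lay between -0.26 and 0.31 from lean. Psmb6 and its copy Psmb6l1 could share probes, and their values are uncertain for that reason.

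The ATPase genes of the regulatory particle that were tested, which leave out Psmc3, had their highest mean in lean rats in every case. The mean of the 5 genes was 5.08 ± 0.21 in lean rats (SD, n = 5), 4.85 ± 0.12 in ZDF rats, 4.80 ± 0.29 in rosiglitazone rats and 4.60 ± 0.32 in resveratrol rats, with resveratrol replicate 1 at 4.06 and the other 4 resveratrol rats at 4.58 to 4.87. Psmc6 was 5.82, 5.74, 5.69, 5.65 and 5.67 in lean rats, 5.10, 5.48, 5.26, 5.20 and 5.02 in ZDF rats, 5.76, 5.06, 5.55, 4.88 and 4.69 in rosiglitazone rats, and 4.56, 5.23, 5.20, 5.50 and 5.18 in resveratrol rats. The lean values lay close together and above all ZDF and all resveratrol values, while 1 rosiglitazone rat reached them. Psmc6 was the only proteasome gene called between ZDF and lean rats (difference -0.50, SE 0.128, adjusted p = 0.0487, limma on the 10 arrays). This call was kept only without lean replicate 5 or ZDF replicate 2 and was lost without any of the other 8 rats (adjusted p up to 0.107), and in the fit over all 20 arrays the adjusted p was 0.166. Its difference from lean was -0.58 with resveratrol (SE 0.188, adjusted p = 0.0426), lost without any rat of these groups but resveratrol replicate 4 (adjusted p up to 0.133), and -0.53 with rosiglitazone (SE 0.188, adjusted p = 0.0517). The other ATPase genes, Psmc1, Psmc2, Psmc4 and Psmc5, were between -0.53 and -0.34 from lean with resveratrol and between -0.31 and -0.12 with rosiglitazone, and did not pass.

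The base subunits without ATPase activity bind ubiquitin receptors and shuttle factors. Psmd1 was 5.81, 5.49, 5.34, 5.74 and 5.56 in lean rats, 5.26, 5.27, 5.35, 5.46 and 5.48 in ZDF rats, 5.42, 5.51, 5.35, 5.03 and 5.32 in rosiglitazone rats, and 4.72, 5.21, 5.04, 5.33 and 5.41 in resveratrol rats. The resveratrol and lean ranges overlapped by 1 rat on the resveratrol side, replicate 5. The difference was -0.45 (SE 0.149, adjusted p = 0.0464), a call kept only without lean replicate 3 or resveratrol replicate 4 or 5 and lost without any other rat of these groups (adjusted p up to 0.137). Psmd2 was -0.26 from lean with resveratrol (adjusted p = 0.249). The copy Psmd1-ps1 was dim (2.42 to 3.10) and could share probes with Psmd1.

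The lid genes were mixed. Psmd13, which encodes a structural lid subunit, was 6.59, 6.57, 6.62, 6.43 and 6.34 in lean rats, 6.68, 6.33, 6.66, 6.35 and 6.73 in ZDF rats, 7.07, 7.17, 6.94, 7.04 and 6.90 in rosiglitazone rats, and 6.99, 6.43, 6.98, 6.72 and 6.65 in resveratrol rats. All 5 rosiglitazone rats lay above all lean and all ZDF rats. The difference from lean was 0.51 (SE 0.141, adjusted p = 0.0154), and it stayed between 0.42 and 0.67 and past the threshold in all 21 alternatives. The difference from ZDF was 0.48 (SE 0.141, adjusted p = 0.187), which did not pass over all genes. Psmd14, which encodes the lid enzyme that removes ubiquitin from substrates, went the other way. Its values were 5.08, 4.80, 4.74, 5.27 and 4.83 in lean rats, 4.64, 4.64, 4.91, 4.80 and 4.26 in ZDF rats, 4.80, 4.54, 4.64, 4.26 and 4.15 in rosiglitazone rats, and 4.40, 4.69, 4.68, 4.40 and 4.39 in resveratrol rats. Rosiglitazone replicate 1 reached the lean range, and the resveratrol rats did not. The difference from lean was -0.47 with rosiglitazone (SE 0.159, adjusted p = 0.0410), lost without lean replicate 1, 2 or 4 or rosiglitazone replicate 2, 4 or 5 (adjusted p up to 0.119), and -0.43 with resveratrol (SE 0.159, adjusted p = 0.0685).

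Psmd12 encodes another structural lid subunit. It was 5.15, 5.58, 5.46, 5.29 and 4.81 in lean rats, 4.58, 4.77, 4.88, 4.73 and 4.66 in ZDF rats, 5.12, 5.48, 5.51, 4.77 and 4.55 in rosiglitazone rats, and 5.24, 5.28, 4.97, 5.16 and 4.58 in resveratrol rats. The ZDF rats lay at or below the lowest lean rat apart from replicate 3. The difference of -0.53 (SE 0.153, adjusted p = 0.0642) did not pass. Psmd6, Psmd7, Psmd8 and Psmd11, which encode further subunits of the lid, were between -0.36 and 0.19 from lean in the 3 obese groups and did not pass.

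Psme4 encodes PA200, a large single-chain activator that caps the core without ATP and is known for its part in histone breakdown in germ cells. It had the largest difference from lean of the 36 genes. Psme4 was 7.25, 7.04, 7.67, 7.18 and 6.81 in lean rats, 7.73, 7.08, 7.37, 7.26 and 7.84 in ZDF rats, 7.94, 7.74, 8.03, 8.15 and 8.50 in rosiglitazone rats, and 8.16, 7.74, 8.08, 7.63 and 7.64 in resveratrol rats. All 5 rosiglitazone rats lay above all 5 lean rats, and 3 of the 5 resveratrol rats did. The difference from lean was 0.88 with rosiglitazone (SE 0.186, adjusted p = 0.00375), between 0.77 and 1.04 and past the threshold in all 21 alternatives. With resveratrol it was 0.66 (SE 0.186, adjusted p = 0.0269), and this did not pass without lean replicate 1, 2, 4 or 5 or resveratrol replicate 1 or 3 (adjusted p up to 0.0771). In ZDF rats it was 0.27 (SE 0.184, adjusted p = 0.386), and the difference between rosiglitazone and ZDF was 0.61 (SE 0.186, adjusted p = 0.20). Rosiglitazone replicate 5 held the highest values both of Psme4 (8.50) and of the neutrophil markers (6.84). The highest red cell marker mean of the rosiglitazone rats was in replicate 3 (8.802). Lean replicate 3 was the highest of its group for Psme4, neutrophil markers (5.30) and red cell markers (8.85). Resveratrol replicate 1 had the highest Psme4 (8.16) and red cell marker mean (9.16) of its group and the lowest neutrophil mean (5.21). ZDF replicate 2 had the lowest Psme4 (7.08) and red cell marker mean (8.03) of its group and the highest neutrophil mean (5.55). The ZDF rat with the highest Psme4 was replicate 5 (7.84), with a red cell mean of 8.78 and a neutrophil mean of 5.25. The highest red cell mean of that group was in replicate 1 (8.86). Other marker lists were not set beside Psme4 rat by rat. With rosiglitazone replicate 5 and lean replicate 1 both left out, Psme4 still passed between rosiglitazone and lean rats. The part of cell types in the Psme4 values was not tested.

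**Figure D3:**
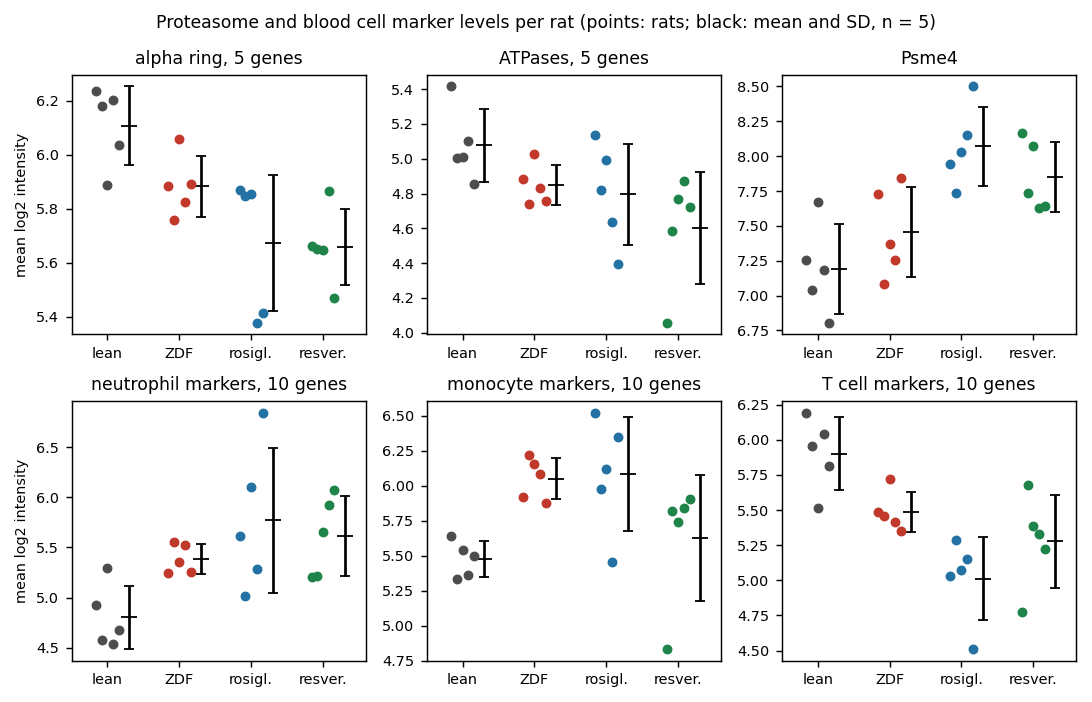
Points are rats, with the mean log2 intensity of the alpha ring genes, the ATPase genes, Psme4 and 3 lists of blood cell markers, and black marks give the mean and SD of each group (n = 5). Alpha ring, ATPase and T cell marker means were highest in lean rats, and the means of Psme4, neutrophil and monocyte markers were lowest. The red cell markers, not plotted, also had their lowest mean in lean rats (8.38).

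The regulator and the assembly chaperones showed no called difference. Psmf1, which encodes PI31, a protein first described as an inhibitor of the core, was 8.73 ± 0.19 in lean rats (SD, n = 5), 8.64 ± 0.28 in ZDF rats, 8.72 ± 0.20 in rosiglitazone rats and 8.88 ± 0.15 in resveratrol rats. The base chaperone genes Psmd5 and Psmd10 had a mean of 3.58 ± 0.17 in lean rats and of 3.40 ± 0.17, 3.43 ± 0.27 and 3.39 ± 0.18 in ZDF, rosiglitazone and resveratrol rats. The core chaperone genes Psmg2 and Psmg4 had a mean of 3.61 ± 0.12 in lean rats and of 3.30 ± 0.30, 3.37 ± 0.19 and 3.38 ± 0.18 in the same order. Psmg2 was -0.46 from lean in ZDF rats (SE 0.194, adjusted p = 0.168). The rule also took in Psmc3ip and Psme3ip1, which are named after the proteasome genes whose products they bind and encode no subunit. Psme3ip1 was 4.90, 5.15, 4.82, 4.91 and 4.58 in lean rats, 4.47, 4.90, 4.84, 4.44 and 4.53 in ZDF rats, 4.44, 4.83, 4.26, 4.51 and 4.18 in rosiglitazone rats, and 3.39, 4.71, 4.60, 4.15 and 4.62 in resveratrol rats. Resveratrol replicate 1 stood lowest, and the difference of -0.58 (SE 0.204, adjusted p = 0.0577) did not pass.

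Counted over the list, the comparison of ZDF with lean rats called 1 of 36 genes, which was lower, and 2.95% of all genes were called (68 higher and 183 lower). The groups did not overlap, with ZDF lower, for Psmc6 and Psmb1, and this held for 5.01% of all genes. With ZDF higher, it held for 0 members and for 127 of the 8499 genes. Of the 36 differences, 31 were below 0, with a median of -0.14 against -0.08 over all genes, and the median was -0.015 (0.04 over all genes) with arrays centred on the median of the kept genes. The comparison of rosiglitazone with lean rats called 5 of 36 (2 higher and 3 lower), and 18.6% of all genes (354 higher and 1231 lower). The median was -0.12 against -0.09 over all genes, and with this centring it was 0.04 against 0.06 over all genes. In this comparison 3 genes (Psmb7, Psmd13 and Psme4) were higher without overlap, and this held for 2.42% of all genes. The other way, 0 members were lower without overlap, against 818 of the 8499 genes. The comparison of resveratrol with lean rats called 6 of 36 (1 higher and 5 lower), and 13.2% of all genes (232 higher and 886 lower). Its median was -0.27 against -0.09 over all genes, or -0.11 against 0.07 with this centring. In it 5 genes (Psma1, Psma5, Psmb1, Psmc6 and Psmd14) were lower without overlap, against 8.47% of all genes. No overlap with resveratrol higher was seen for 0 members and for 170 of the 8499 genes. The shares of called members were thus near those of all genes. At an unadjusted p under 0.05 there were 6 of 36 members (16.7%) for ZDF, against 24.1% of all genes. There were 11 (30.6%) for rosiglitazone against 34.2%, and 15 (41.7%) for resveratrol against 31.6%. The 3 comparisons share the 5 lean rats, and lean replicate 1 held the highest value of 9 of the 36 genes. Without lean replicate 1 the counts were 0 for ZDF, 3 for rosiglitazone (Psma1, Psmd13 and Psme4) and 1 for resveratrol (Psma1).

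**Figure D4:**
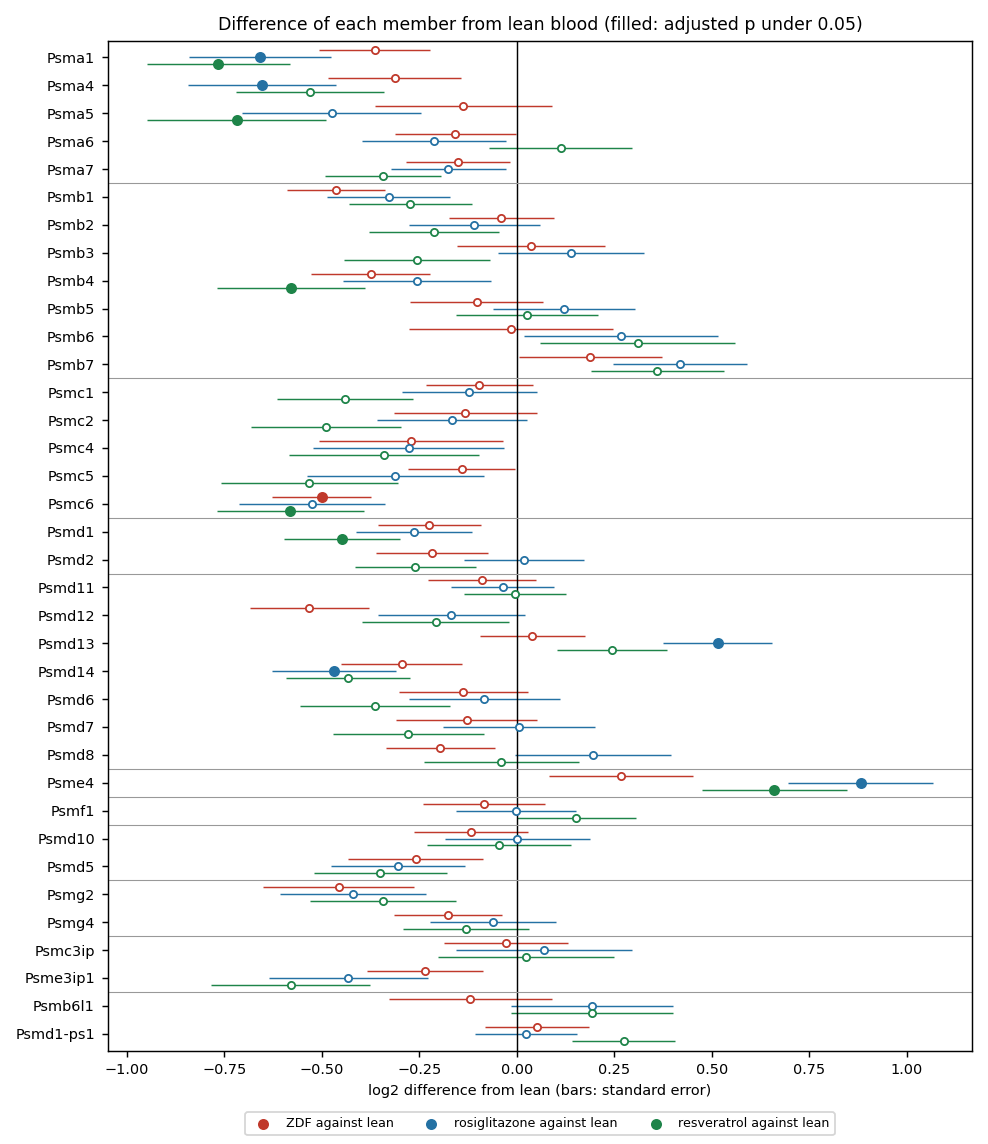
Each point is the log2 difference of a gene from lean rats in ZDF (red), rosiglitazone (blue) and resveratrol (green) rats, with bars of 1 standard error, and filled points have an adjusted p under 0.05. Differences ran from -0.77 for Psma1 with resveratrol to 0.88 for Psme4 with rosiglitazone.

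Neither compound gave a called difference from untreated ZDF rats. For rosiglitazone against ZDF, limma called 0 of 36 genes and 0.165% of all genes. At an unadjusted p under 0.05 there were 2 of 36 (5.56%), Psmd13 and Psme4, against 12.1% of all genes. The median was 0.05, and Psmd13 was higher without overlap, which held for 1.09% of all genes. The other way, 0 members were lower without overlap, against 126 of the 8499 genes. For resveratrol against ZDF, limma called 0 of 36 and 0.0% of all genes. At an unadjusted p under 0.05 there were 3 of 36 (8.33%), Psma1, Psma5 and Psme4, against 10.3% of all genes, with differences between -0.58 (Psma5) and 0.39 (Psme4). For rosiglitazone against resveratrol, limma called 0 of 36 and 0.0471% of all genes. At an unadjusted p under 0.05 there was 1 of 36 (2.78%), Psmb3, against 9.0% of all genes, with differences between -0.33 (Psma6) and 0.40 (Psmb3). The 5 ATPase genes had differences of 0.06 to 0.32, none called, and the dim copy Psmd1-ps1 was lower without overlap, as were 0.565% of all genes. These counts of 0 stayed 0 in all 21 alternatives.

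Genes that work with the proteasome were looked at from lists chosen with earlier results known. In the comparisons with lean rats 2.95% of all genes were called for ZDF, 18.6% for rosiglitazone and 13.2% for resveratrol, and each count that follows is over 4 to 11 genes. Of 17 partners of the particle and its assembly, 11 were named and bright enough. With rosiglitazone against lean 1 was higher (Adrm1, 0.49, adjusted p = 0.0188), and with resveratrol Adrm1 was higher (0.44, adjusted p = 0.0381) and Usp14 lower (-0.67, adjusted p = 0.0391). Adrm1 encodes a ubiquitin receptor of the base, and Usp14 encodes a ubiquitin-removing enzyme that binds the base. Of 9 genes for factors that control transcription of proteasome genes, 8 were tested. Ngly1, which encodes the enzyme that removes sugar chains from the factor NFE2L1 before it becomes active, was lower with rosiglitazone (-0.65, adjusted p = 0.0201) and with resveratrol (-0.72, adjusted p = 0.0200), and 0 of the 8 passed between ZDF and lean rats (3 at an unadjusted p under 0.05, against 24.1% of all genes). Of 9 genes for ubiquitin activation and the segregase p97, 5 were tested and 1 passed, Uba6, a ubiquitin-activating enzyme (-0.60 with resveratrol against lean, adjusted p = 0.0391). Of the interferon-inducible genes left out by the rule, 4 were tested, and Psmb8, a catalytic subunit of the immunoproteasome, was lower than in lean rats with an adjusted p of 0.0393 in ZDF (-0.68), 0.00268 in rosiglitazone (-0.91) and 0.0261 in resveratrol rats (-0.64).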

How the data were processed

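Blood RNA of 20 rats (4 groups of 5, 100 ng of RNA per array) was measured on Affymetrix Rat Gene 2.1 ST arrays. The authors summarised probe values with RMA, and no source used here names its version. The deposited table gives log2 intensities of 36685 rows, from -0.29 to 12.20. The number of arrays limits the precision, and each p-value sets a difference between groups against the spread between rats. Rows were named from the platform annotation (14824 with 1 symbol, 829 with several, 21032 with none), and only rows with 1 symbol were used. The brightest row per symbol was taken, and the 8499 genes whose 20-array mean reached 2.64, the median of the means of all rows, were kept. No arrays were duplicates.

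limma 3.58.1 in R 4.3.3 (lmFit, eBayes) gave 7 tests per gene, adjusted by Benjamini and Hochberg over all 8499 genes. ZDF was compared with lean rats on their 10 arrays, and the other comparisons and the F test over the 4 groups used all 20 arrays. Genes given rat by rat were the called members, then those with the smallest p, up to 12. Psmb7 and the other genes with values were named after these were seen. The members and lists were chosen with earlier results of these data known. Alternatives were other filters, quantile normalization, centring of arrays, other priors and weights, the other set of arrays, a replicate block and leaving out each rat. 2 more were added after the data were seen. Psma2 and Psma3 (alpha ring), Psmc3 (ATPase), Psmd3 (lid), Psmd4 (base), Psmd9 (base chaperone), Psme3 (activator) and Psmg1 (core chaperone) were not analysed here. Counts by subcomplex cover only the genes tested. Sequences come from RefSeq (GRCr8). The steps were tested on simulated data. Python 3.11.15, pandas 2.3.3 and matplotlib 3.10.9 were used.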

Additional observations from a re-analysis of the deposited data

Results flagged for a closer look

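Over the 36 proteasome genes and 4 groups, 144 sets of 5 rats were looked at for a rat far from the other 4, and 4 had one. Chance gives about 1 in 20 such sets. Psma4 was 6.00 in resveratrol replicate 4, and the nearest of the other resveratrol rats had 5.30. Psma6 was 6.87 in ZDF replicate 4, and the nearest ZDF rat had 7.16. Psmb4 was 4.42 in ZDF replicate 1, and the nearest ZDF rat had 4.82. Psmb5 was 3.09 in resveratrol replicate 5, and the nearest resveratrol rat had 3.81.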

How the results depend on the processing

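Among the 12 called differences, Psmd13 and Psme4 between rosiglitazone and lean rats and Psma1 between resveratrol and lean rats were past the threshold under all alternatives run, and no called difference changed sign. The other 9 were lost under 2 to 14 alternatives each. Settings other than leaving out 1 rat gave higher adjusted p-values for some than those given with the genes above. With rosiglitazone against lean, such settings ended the call of Psma4 in 3 of 11 (adjusted p up to 0.137) and of Psmd14 in 6 (up to 0.212). With resveratrol against lean, they ended that of Psmb4 in 5 (up to 0.172) and of Psmd1 in 7 (up to 0.223). Between ZDF and lean rats the count of called members was 1, and it was 0 with no filter, with quantile normalization, with a replicate block, with all 20 arrays in the fit, with arrays centred on the median of the kept genes and with 2 arrays left out. It was 3 (Psmb1, Psmc6 and Psmd12) with a filter at the 75th percentile, with arrays centred on their median, with a trended robust prior and with array weights, and 0 to 2 with 1 rat left out. The last 2 of the settings with a count of 0, the centring on kept genes and the 2 arrays (lean replicate 1, with muscle transcripts, and rosiglitazone replicate 5, with the smallest spread), were chosen after seeing the data. The genes called of all 8499 numbered 251, and 132 with no filter, 490 at the 75th percentile, 135 with quantile normalization, 455 and 245 with the 2 centrings, 512 with the trended prior, 504 with weights, 75 with the replicate block, 79 with 2 arrays left out and 23 on 20 arrays. The median of members was -0.14 and became -0.015 with the centring on kept genes (0.04 over all genes). It lay between -0.20 and -0.11 with 1 rat left out.

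Between rosiglitazone and lean rats the count of 5 became 2 (Psmd13 and Psme4) with 2 arrays left out, when 358 of all genes were called in place of 1585, and 2 to 6 with 1 rat left out. With quantile normalization 1012 genes were called. The median of members, -0.12, became 0.04 with the centring on kept genes (0.06 over all genes). Between resveratrol and lean rats the count of 6 became 2 with no filter, 2 with quantile normalization (415 of all genes in place of 1118), 3 with the centring on kept genes, 2 with 2 arrays left out (654 of all genes) and 1 to 8 with 1 rat left out. Its median of -0.27 became -0.12 with quantile normalization and -0.11 with the centring on kept genes (-0.02 and 0.07 over all genes). It was -0.31 to -0.21 with 1 rat left out. Over the 4 groups the count of 3 became 5 with array weights (1561 of all genes in place of 966), 0 with 2 arrays left out (165 of all genes) and 1 to 4 with 1 rat left out, and 544 of all genes were called with quantile normalization. The causes were not tested.

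Scaling moved all genes together. The median difference of all genes between ZDF and lean rats was -0.08 as deposited, -0.15 with arrays centred on the median of all rows, -0.03 with quantile normalization and 0.04 with the centring on kept genes. Rats with the same replicate number were not treated as pairs in the main tests, and the correlations that follow cannot exclude pairing. Deviations of same-numbered rats correlated with a median of 0.04, from -0.18 to 0.27, and rats of other numbers with a median of -0.01. With the replicate block 5 members were called for rosiglitazone and 4 for resveratrol against lean, and 2 over the 4 groups. Low intensity limits the 5 dim genes.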
